A study of Rattus norvegicus with 6 samples.

Results

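The 10 genes followed here mark the cells of brain capillaries and were measured in the hippocampus of a rat model of Alzheimer's disease: Cldn5, Ocln, Slc2a1, Pecam1 and Flt1 for endothelial cells, and Pdgfrb, Rgs5, Kcnj8, Abcc9 and Vtn for pericytes. They are known markers of these cells and were found by matching the RefSeq accession of each probe, without its version, to the rat gene table of assembly GRCr8. All 10 genes were on the array with 12 of its 30367 probes, and 11 of these 12 were among the 22768 probes tested. They are 10 of the 15168 genes that could be named on the array in this way. Each gene is described by its leading probe, the one with the highest mean processed intensity, and that probe was well above background on all 6 arrays for all 10 genes.

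The samples were hippocampal tissue from adult male Sprague Dawley (SD) rats, with 1 single-colour Agilent array per sample. The 3 AD samples came from rats given Aβ1-42 oligomers by injection into the cerebral ventricles (ICV). The oligomers were given on both sides of the brain, by way of a steel cannula in the lateral ventricles. The 3 Sham samples came from rats of the sham group, and the paper does not state what these rats received. Neither a group labelled as untreated nor an amyloid transgene was part of the comparison. No label ties a sample to an animal, so p-values reflect how far these 3 tissue samples per group varied, which may be technical.

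Brain endothelial cells are sealed to one another by tight junctions and carry glucose and amino acids across the barrier on dedicated transporters. Pericytes sit on the outer face of the capillary, are recruited and kept there by platelet-derived growth factor acting on Pdgfrb, and respond to the energy state of the tissue through ATP-sensitive potassium channels. In Alzheimer's disease the barrier and the pericyte coat are studied because both bear on the clearance of Aβ and on blood flow.

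RefSeq promoter windows of assembly GRCr8, from 250 bases before to 50 after the annotated start, were given for 8 of the 10 genes, all but Pdgfrb and Pecam1. Those of the 3 genes that rose in AD, and that of Kcnj8, the only gene with all AD values below all Sham values, are shown because the results turn on them. Each reads 5′ to 3′ along the gene, and capitals mark the GC box GGGCGG or its reverse complement CCGCCC. The window of Cldn5 lies at chr11:95718549-95718848 on the minus strand, that of Vtn at chr10:63892532-63892831 on the plus strand, that of Abcc9 at chr4:177386299-177386598 on the minus strand and that of Kcnj8 at chr4:177246499-177246798 on the minus strand.
Cldn5: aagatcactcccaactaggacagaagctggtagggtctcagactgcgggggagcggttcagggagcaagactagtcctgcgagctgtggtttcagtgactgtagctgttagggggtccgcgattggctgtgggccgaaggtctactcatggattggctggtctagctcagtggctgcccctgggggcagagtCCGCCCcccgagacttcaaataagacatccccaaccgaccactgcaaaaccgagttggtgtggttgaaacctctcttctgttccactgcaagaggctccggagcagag
Vtn: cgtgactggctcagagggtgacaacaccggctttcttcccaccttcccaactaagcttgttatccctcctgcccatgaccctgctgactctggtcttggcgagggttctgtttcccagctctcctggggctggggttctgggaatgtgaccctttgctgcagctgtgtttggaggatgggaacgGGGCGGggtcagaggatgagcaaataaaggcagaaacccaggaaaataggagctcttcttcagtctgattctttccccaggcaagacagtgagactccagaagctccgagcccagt
Abcc9: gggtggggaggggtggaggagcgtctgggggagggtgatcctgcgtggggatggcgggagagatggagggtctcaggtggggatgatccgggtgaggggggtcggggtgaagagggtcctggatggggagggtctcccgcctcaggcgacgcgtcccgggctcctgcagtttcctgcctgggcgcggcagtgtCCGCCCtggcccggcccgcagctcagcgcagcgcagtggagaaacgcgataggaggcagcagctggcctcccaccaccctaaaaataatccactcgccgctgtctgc
Kcnj8: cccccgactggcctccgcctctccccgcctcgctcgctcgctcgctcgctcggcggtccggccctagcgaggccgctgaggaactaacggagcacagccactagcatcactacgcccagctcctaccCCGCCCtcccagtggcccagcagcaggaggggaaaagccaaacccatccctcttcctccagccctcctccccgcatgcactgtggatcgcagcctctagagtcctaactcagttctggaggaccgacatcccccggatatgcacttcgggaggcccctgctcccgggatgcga

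A GC box, the letters that Sp-family factors bind, was found on either strand in 7 of the 8 windows, all but that of Ocln. It was found in 33.1% of all 33469 promoter windows of the same length and in 41.8% of the 21851 windows of protein-coding genes. The 4 windows shown each held 1 match, whether the gene rose or not. CCGGAA, a form of the ETS core, bound by a factor family that shapes endothelial cells, was found in 0 of the 8 windows against 15.0% of all windows. Other forms of the ETS core were not searched for, so the windows may hold them. The SOX letters ACAATG were found in 0 of 8 against 13.2%, and AACAAT in 1 of 8, that of Rgs5, against 11.7%. E-box letters CANNTG were found in 3 of 8 against 72.1% of all windows. The SOX strings overlap where AACAATG occurs. The 8 windows held 54.3% to 72.7% G and C, against a median of 51.7% over all windows. The shares were not matched for this composition. A match in letters is a description of the window only.

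Of the 10 genes, Cldn5, Vtn and Abcc9, 3 in all, rose in AD and none fell by limma at an adjusted p under 0.05. Over all tested probes 12.6% passed, 4.16% as higher in AD and 8.45% as lower. Without regard to the test, all AD values lay above all Sham values for 4 of the 10 genes, against 15.6% of tested probes, and below them for 1, against 23.4%. The median change of the 10 genes was 0.10 on the log2 scale, and that of all tested probes was -0.012. In tissue RNA, fewer cells of a type and less RNA per cell cannot be told apart, and the same holds for more of either.

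Levels below are log2 of the processed intensity minus the 75th percentile of the same array, so that a level of 0 is the brightness of the probe at that percentile, and they compare arrays for 1 gene but not genes with each other. The array percentile lay between 753 and 932 intensity units on 5 arrays and at 429 on Sham 3, the only array read on another day. The 3 AD arrays were read in 1 scan, Sham 1 and Sham 2 in another of the same day, so scan and group cannot be told apart. With scan as a random block, limma called 0 of the 10 genes and 0% of all probes, and 3 of the genes had an unadjusted p under 0.05. Within the first scan day, without Sham 3, it called 4 of the 10 genes and 19.6% of all probes. Of the probes called over all 6 arrays 33.0% were higher in AD, a share that was 53.5% when the percentile was taken over probes detected on all arrays and 17.5% after normexp background correction, which also moved the median of all changes to -0.15.

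**Figure D1:**
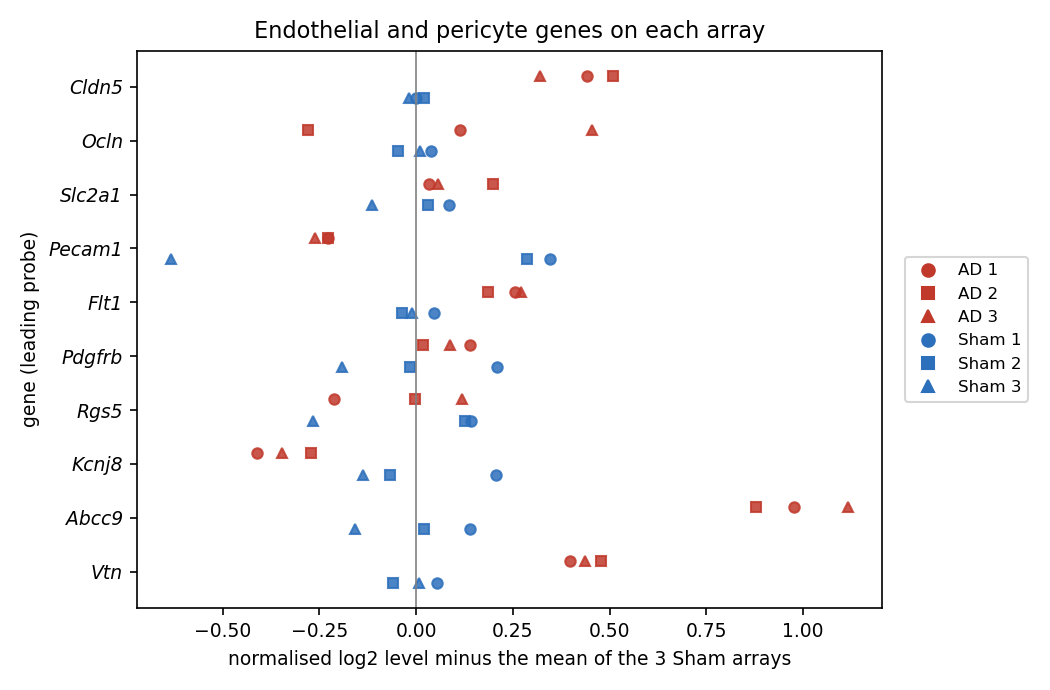
Normalised log2 level of each gene's leading probe on each of the 6 arrays, minus the mean of the 3 Sham arrays, with AD in red and Sham in blue and a symbol for each replicate. Cldn5, Flt1, Abcc9 and Vtn have all 3 AD values to the right of all 3 Sham values, Kcnj8 has them to the left, and the groups overlap for the other 5 genes.

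Of the tight junction genes, Cldn5 rose and Ocln was not called. Cldn5 encodes claudin-5, the main claudin of brain endothelial junctions. Its level was 0.31, 0.38 and 0.19 on the AD arrays and -0.13, -0.11 and -0.15 on the Sham arrays. The Sham values were nearly equal and every AD value lay above them. The difference was 0.42 ± 0.09 on the log2 scale (SE, n = 3 per group, 95% interval 0.21 to 0.63), a fold of 1.34, with an adjusted p of 0.0341. Within the first scan day it was 0.41, with an adjusted p of 0.0363, and with scan as a random block the adjusted p was 0.239. With each array centred on its median the difference was 0.37 and the call was lost, at an adjusted p of 0.0644.

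Ocln encodes occludin, a membrane protein of the same junctions that epithelia, the choroid plexus among them, also use. Its level was -0.66, -1.05 and -0.32 on the AD arrays and -0.74, -0.82 and -0.77 on the Sham arrays. The AD arrays held both the highest and the lowest value, with the Sham arrays close together between them. The difference was 0.10 ± 0.19 (SE, 95% interval -0.36 to 0.55, adjusted p of 0.758). Within AD, the order of the arrays, AD 3 highest and AD 2 lowest, was also that of the choroid plexus markers given below, and their part in it was not tested.

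Slc2a1 encodes Glut1, the glucose transporter of the barrier, which choroid plexus also carries. Its level was 2.02, 2.19 and 2.05 in AD and 2.08, 2.02 and 1.87 in Sham. The groups overlapped, with AD 2 highest and Sham 3 lowest. The difference was 0.10 ± 0.10 (SE, 95% interval -0.14 to 0.33, adjusted p of 0.540). This probe is printed on 10 spots of each array, of which 9 were used on Sham 1, and the standard deviation between spots of an array ran from 0.04 to 0.15 on the log2 scale. With the spot of Sham 1 that the scanner software had marked as an outlier kept in, the difference was 0.0043.

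Neither endothelial surface gene was called. Pecam1 encodes CD31, an adhesion molecule of endothelial junctions that platelets and leukocytes also carry. Its level was 0.21, 0.21 and 0.17 in AD and 0.78, 0.72 and -0.20 in Sham. The AD arrays agreed closely, while Sham 1 and Sham 2 lay above them and Sham 3 below. The difference over all 6 arrays was -0.24 ± 0.27 (SE, 95% interval -0.89 to 0.41, adjusted p of 0.579). Within the first scan day, which leaves Sham 3 out, it was -0.56 and passed, with an adjusted p of 0.0194, so that the value for Pecam1 rests on 1 array. The summed intensity of the 8 leukocyte and platelet markers on the array was 0.46 to 0.55 in AD and 0.67 to 0.74 in Sham. These sums are in units of each array's 75th percentile, and the sum was 0.71 on Sham 3. Of the 6 markers that were tested 1 was called higher and 2 lower, and 3 had a change above 0, with a median change of -0.32. Their part in the Pecam1 values was not tested.

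Flt1 encodes VEGF receptor 1, which binds and holds vascular endothelial growth factor. Its level was -2.80, -2.87 and -2.78 in AD and -3.01, -3.09 and -3.06 in Sham. Every AD value lay above every Sham value, by a narrow gap at a dim signal. The difference was 0.24 ± 0.08 (SE, 95% interval 0.04 to 0.43) and did not pass, with an adjusted p of 0.102. After normexp background correction it was 0.0092.

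**Figure D2:**
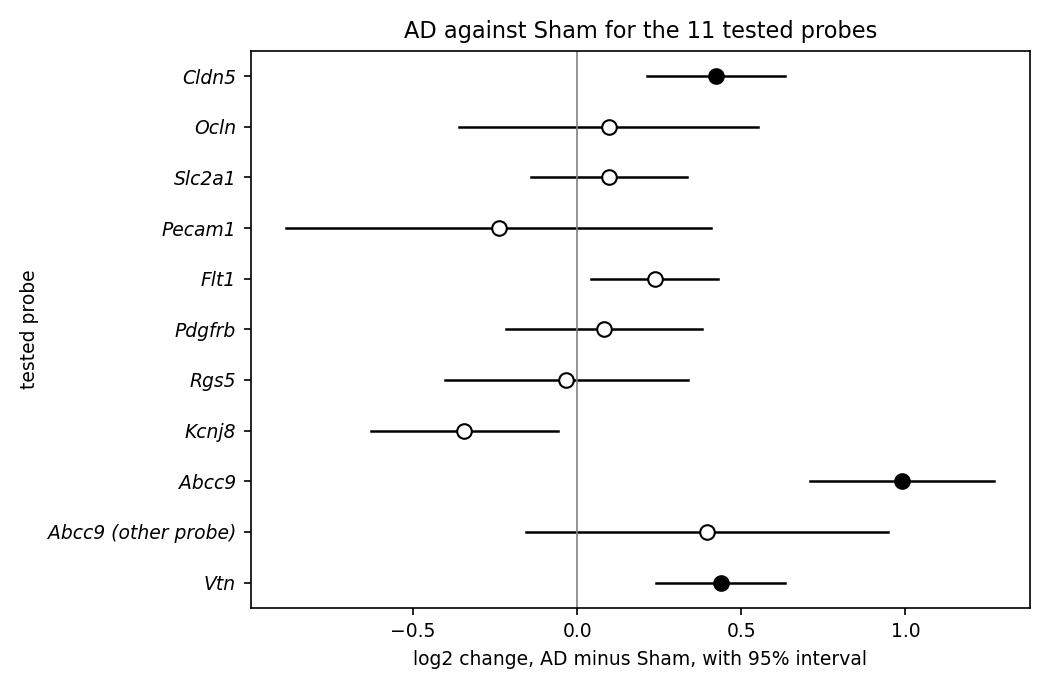
Difference between the AD and Sham means on the log2 scale for the 11 tested probes of the 10 genes, with bars for the 95% interval and filled points for an adjusted p under 0.05. Cldn5, Vtn and the leading probe of Abcc9 are filled, and the interval of Pecam1 is the widest, from -0.89 to 0.41.

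The pericyte signalling genes were not called. Pdgfrb encodes the receptor by which platelet-derived growth factor B from the endothelium recruits pericytes. Its level was 0.10, -0.02 and 0.05 in AD and 0.17, -0.06 and -0.23 in Sham. The AD values lay inside the range of the Sham values. The difference was 0.082 ± 0.12 (SE, 95% interval -0.22 to 0.38, adjusted p of 0.687). Rgs5 encodes a brake on G protein signalling that is enriched in pericytes. Its level was -1.37, -1.16 and -1.03 in AD and -1.01, -1.03 and -1.42 in Sham. The ranges of the groups nearly coincided, with AD 1 and Sham 3 low. The difference was -0.033 ± 0.15 (SE, 95% interval -0.40 to 0.34, adjusted p of 0.907).

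Kcnj8 and Abcc9 encode the pore, Kir6.1, and the sulfonylurea receptor subunit, SUR2, of the ATP-sensitive potassium channel of pericytes and vascular smooth muscle. In RefSeq's GRCr8 they are neighbours on chromosome 4 with 0 annotated genes between them, and their values lay on opposite sides of Sham. The level of Kcnj8 was -0.80, -0.66 and -0.73 in AD and -0.18, -0.45 and -0.52 in Sham. Every AD value lay below every Sham value, with Sham 1 standing above the other Sham arrays. The difference was -0.34 ± 0.12 (SE, 95% interval -0.63 to -0.06) and did not pass, with an adjusted p of 0.106.

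The leading probe of Abcc9 had a level of -2.28, -2.38 and -2.14 in AD and -3.11, -3.23 and -3.41 in Sham. Every AD array lay above every Sham array, with a gap between the groups wider than the spread within either. Abcc9 rose by 0.99 ± 0.12 on the log2 scale (SE, 95% interval 0.71 to 1.27), a fold of 1.99, with an adjusted p of 0.0182, and 98.2% of tested probes had a change at or below this one. Within the first scan day the change was 0.91 (adjusted p of 0.0185), and with scan as a random block 1.01 (adjusted p of 0.171). The probe is dim, at 153 to 212 processed intensity units in AD and 40.4 to 87.0 in Sham, and after normexp correction the change was 0.49 (adjusted p of 0.0328), against 7.77% of all probes called under that correction.

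The other probes of Abcc9 measured less. On 2 AD arrays and 1 Sham array the next brightest probe passed the background criterion, with levels of -5.38, -5.64 and -5.06 in AD and -5.52, -6.17 and -5.57 in Sham. Its groups overlapped, and its difference of 0.40 ± 0.23 (SE) did not pass (adjusted p of 0.287). The third was above background on 0 of the 6 arrays and was not tested, so the rise of Abcc9 rests on 1 probe.

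The level of Abcc9 minus that of Kcnj8, a quantity that scaling a whole array does not move, was -1.48, -1.72 and -1.41 in AD and -2.93, -2.78 and -2.89 in Sham. The groups were well apart, at -1.53 ± 0.16 in AD and -2.87 ± 0.08 in Sham (standard deviation, n = 3 each). The difference was 1.33, with a two-sided exact permutation p of 0.1, the smallest that 3 against 3 arrays can give. That outcome was fixed in advance, since each gene alone separated the groups, in opposite directions, so the test adds nothing to the values above. This pair was also chosen after the values had been seen. The difference is given as a description only. After normexp correction the changes of the leading probes were 0.49 for Abcc9 and -0.33 for Kcnj8. The subunits that form the corresponding channel of neurons, Kcnj11 at -0.24 ± 0.11 (SE, adjusted p of 0.196) and Abcc8 at 0.026 ± 0.14 (SE, adjusted p of 0.919), were not called.

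Vtn encodes vitronectin, an adhesive protein that brain pericytes secrete and that endothelial integrins bind. Its level was -0.47, -0.39 and -0.43 in AD and -0.81, -0.92 and -0.86 in Sham. Both groups were tight and every AD value lay above every Sham value. Vtn rose by 0.44 ± 0.08 (SE, 95% interval 0.24 to 0.63), a fold of 1.35, with an adjusted p of 0.0284. The change was again 0.44 within the first scan day (adjusted p of 0.0270), and with scan as a random block the adjusted p was 0.211. Of the listed integrin subunits, Itgav, Itgb1, Itgb3 and Itgb5, only Itgb1 was called. Itgb1 rose by 0.59 ± 0.09 (SE, adjusted p of 0.0228) and Itgb5 had a difference of 0.27 (adjusted p of 0.202).

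Which array was left out decided whether the 3 calls held. Leaving out any one array other than Sham 3 left 0 of the 10 genes called by limma, and 3 to 5 of the genes with an unadjusted p under 0.05. The loss was that of the whole array, with 0 to 2 of all 22768 tested probes called. Between 4861 and 6445 probes had an unadjusted p under 0.05. The adjusted p in these 5 omissions ran from 0.0514 to 0.117 for Abcc9, from 0.0628 to 0.132 for Vtn and from 0.0839 to 0.154 for Cldn5. The changes moved little, from 0.91 to 1.06 for Abcc9, from 0.41 to 0.46 for Vtn and from 0.38 to 0.47 for Cldn5 over all 6 omissions. Without Sham 3 the 3 genes were called, and Pecam1 with them, against 19.6% of all probes.

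**Figure D3:**
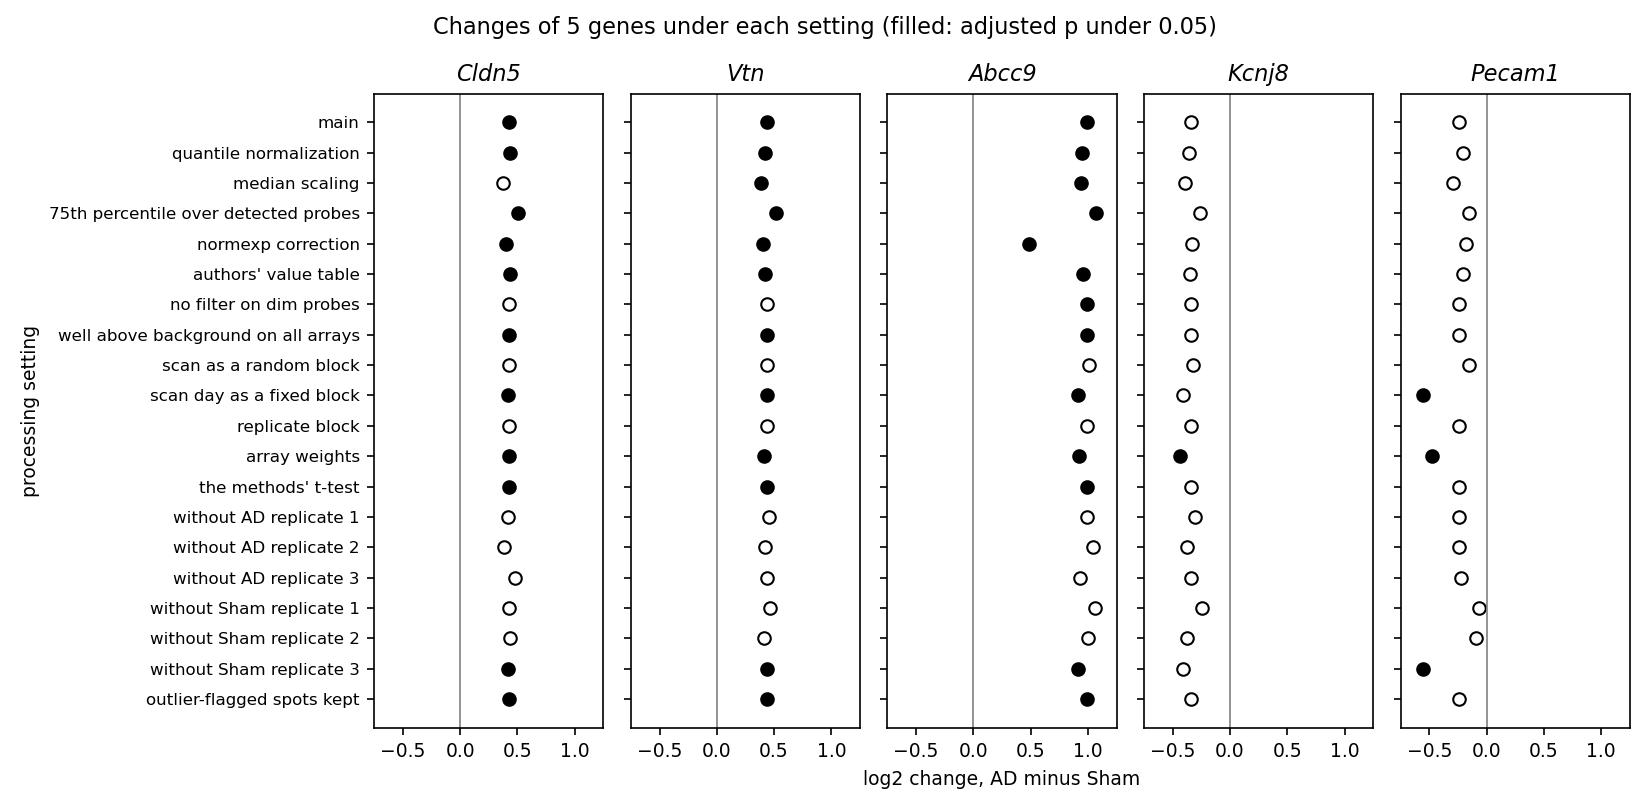
Difference between AD and Sham on the log2 scale for Cldn5, Vtn, Abcc9, Kcnj8 and Pecam1 under each processing setting, with filled points for an adjusted p under 0.05. The values of Cldn5 and Vtn hardly move, Abcc9 moves from 0.99 to 0.49 after normexp correction, and Pecam1 moves to -0.56 without Sham replicate 3, while which points are filled varies with the arrays left out and the block.

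Markers of other tissues, choroid plexus and skeletal muscle, moved between the same arrays. All 13 tested choroid plexus markers, Ttr, the transthyretin gene, and Kl among them, had a change above 0, with a median of 2.27, and 0 were called. No marker of this list or of the skeletal muscle list was below background on all arrays. For the 15 choroid plexus markers on the array, summed intensity was 159, 85.5 and 169 on AD 1, AD 2 and AD 3. It was 29.5, 60.5 and 106 on Sham 1, Sham 2 and Sham 3, so Sham 3 lay above AD 2. These sums are in the units used above for the leukocyte and platelet markers. All AD values lay above all Sham values for 6 of the 13 tested choroid plexus markers. The median level of these 13 against the Sham mean was 3.01 on AD 1, 0.58 on AD 2 and 3.85 on AD 3. It lay between -0.45 and 0.46 on the Sham arrays. The 14 skeletal muscle markers stood at 0.88, 0.59 and 2.42 on the AD arrays and between -0.05 and 0.09 on the Sham arrays, with 2 called higher. Skeletal muscle also expresses Abcc9, whose order within AD, AD 3 highest and AD 2 lowest, was that of both lists, and their part in its rise was not tested. On AD 1, AD 2 and AD 3, Abcc9 stood 0.98, 0.88 and 1.12 above the Sham mean, Cldn5 0.44, 0.51 and 0.32, and Vtn 0.40, 0.48 and 0.44.

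Other marker lists were given by their summed intensity in units of each array's 75th percentile. It was 10.2 to 10.7 in AD and 8.72 to 10.8 in Sham for the 10 endothelial and pericyte genes themselves. For 11 leptomeningeal fibroblast markers it was 14.8 to 38.9 in AD and 12.7 to 17.8 in Sham, with 1 called higher, while 5 of the 11 had a change above 0 and their median change was -0.23. For 7 erythrocyte markers it was 6.70 to 13.5 in AD and 11.7 to 68.2 in Sham, with 1 of the 6 tested called lower. Each of the 11 hippocampal neuron markers was above background on at least 1 array, with sums of 35.3 to 36.5 in AD and 45.6 to 49.4 in Sham and 2 called lower. Of 10 markers each, 0 were called for microglia and for astrocytes and 5 were higher for oligodendrocytes, against 4.16% of all tested probes called higher. Of the 10 oligodendrocyte markers 9 had a change above 0, with a median of 0.44. Their summed intensity was 97.4 to 116 in AD and 109 to 159 in Sham. The part of these marker lists in the changes of the capillary genes was not tested.

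Beyond the 10 genes, 118 further vascular genes in 7 lists were tested, of which 11 rose and 2 fell, 11.02% of the genes against 12.6% of all probes. Tight junction and barrier transport genes had 5 of 25 higher, 0 lower and a median change of 0.37, against 4.16% of all tested probes called higher and 8.45% lower. Jam2, a junctional adhesion molecule, rose by 0.72 ± 0.12 (SE, adjusted p of 0.0234), from 0.56, 0.71 and 0.92 in Sham to 1.41, 1.55 and 1.39 in AD. Every AD value of Jam2 lay above every Sham value, and after normexp correction the change was 0.70 (adjusted p of 0.0207). Slc7a5, a carrier of large neutral amino acids, rose by 0.52. Cldn12, another claudin, rose by 0.52 on its leading probe, while a dimmer probe gave -0.12. Within AD, Cldn1, Cldn3, F11r and Marveld2, none of them called, had the order of the choroid plexus markers, AD 3 highest and AD 2 lowest. Cldn12 had it too, while Jam2 and Slc7a5 did not, and the part of that tissue in this list was not tested. After normexp correction Jam2 alone among the 25 was called, against 7.77% of all probes.

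Endothelial identity genes had 5 of 25 higher, 0 lower and a median change of 0.066. Of all tested probes 4.16% were called higher and 8.45% lower. All AD values lay above all Sham values for 8 of the 25, against 15.6% of tested probes. They lay below all Sham values for 4, down to a change of -0.40, against 23.4% of tested probes. Sox17, a transcription factor of arterial endothelium, stood at -1.70, -1.91 and -1.73 in AD and -2.98, -2.64 and -3.38 in Sham. The groups were far apart, and Sox17 rose by 1.22 ± 0.20 (SE, adjusted p of 0.0226), or by 0.67 after normexp correction (adjusted p of 0.0202). Its relative Sox7 rose by 0.76 and Lef1, a nuclear partner of Wnt signalling in barrier endothelium, by 0.48. Clec14a, an endothelial surface lectin, rose by 0.60 on its leading probe and stood at -0.20 on a dimmer one. After normexp correction Sox17 alone among the 25 was called, against 7.77% of all probes.

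The remaining lists had few calls, where 12.6% of all tested probes were called. Of 21 growth factor and receptor genes 1 fell, Vegfc, a ligand that drives lymphatic growth, by 0.34 ± 0.08 on the log2 scale (SE, adjusted p of 0.0423), and the median was 0.12. Of 17 pericyte identity genes 1 fell, Art3, an ADP-ribosyltransferase family gene, by 0.70 ± 0.15 (SE, adjusted p of 0.0370), while its other probe gave -0.022, and the median was -0.0077. After normexp correction neither passed, with adjusted p of 0.0687 for Vegfc and 0.0522 for Art3. Of 13 genes of partner subunits and of families shared with the 10, only Itgb1, given above, passed, and its other probe gave 0.42. Of 10 vascular smooth muscle genes 0 passed, with Actg2 at -0.39 ± 0.45 and Tpm2 at -0.28 ± 0.66 (SE). Of 7 endothelial activation genes 0 passed, with Ccl2, a chemokine, at -1.17 ± 0.47 and Timp1, a protease inhibitor, at -0.81 ± 0.49 (SE). With scan as a random block 0 genes of the 7 lists were called.

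**Figure D4:**
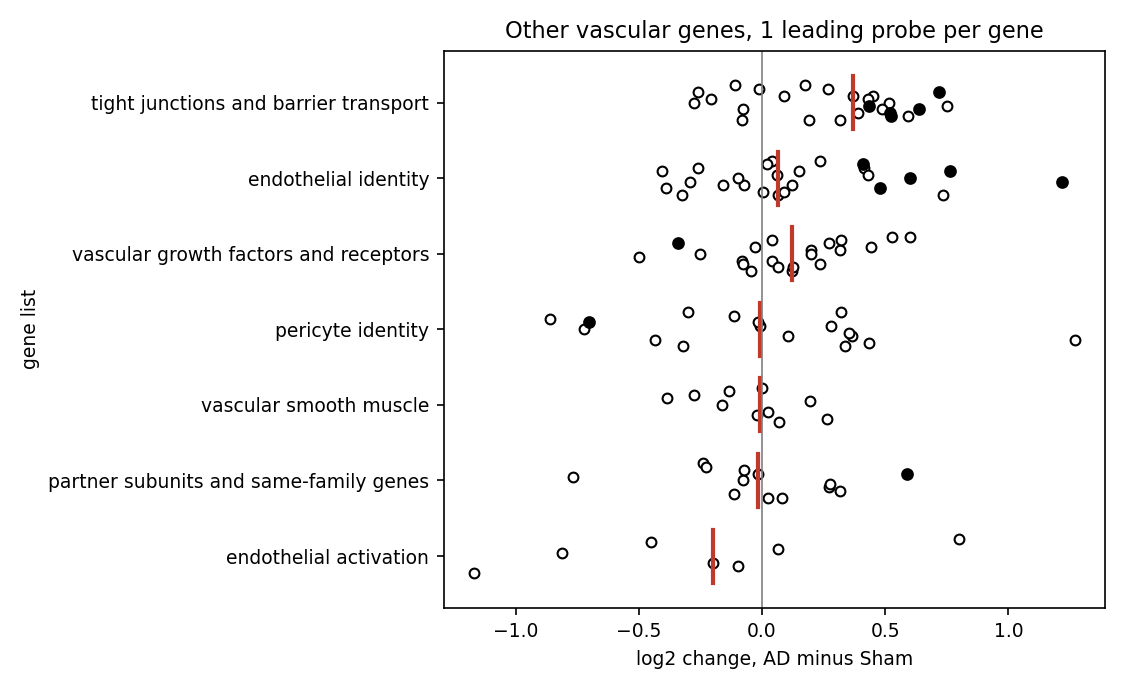
Difference between AD and Sham on the log2 scale for the 118 tested genes of 7 vascular lists, 1 point per gene from its leading probe, filled at an adjusted p under 0.05, with a red bar at each list's median. The median is 0.37 for tight junctions and barrier transport and lies between -0.20 and 0.12 for the other lists.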

How the data were processed

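Hippocampal total RNA of 3 AD and 3 Sham samples was labelled with Cy3 and hybridised to Agilent rat arrays, 1 per sample. The authors deposited scanner output made with Agilent Feature Extraction 11.0.1.1, per the file headers and the submitters' processing notes. The deposited processed signal is a linear intensity per spot, with background already subtracted by that software, per the file headers. The authors also deposited a table of log2 values whose normalization is not given in the sources used here. Its columns had nearly equal medians, 6.5704 for Sham 3 and 6.5707 for the others, and its columns for AD 2 and AD 3 matched the scanner values of AD 3 and AD 2, so it was used only as an alternative.

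Control spots and spots with outlier flags were left out, spots of a probe were averaged, and log2 intensity minus each array's 75th percentile was taken. Between 70.7% and 79.7% of probes were well above background on an array, and the number of arrays limits the precision. Probes well above background on at least 3 of 6 arrays, with a value on all 6, were tested with limma 3.58.1 in R 4.3.3 (AD against Sham, no covariate), with Benjamini-Hochberg adjustment over all 22768. Genes were named by accession from RefSeq's GRCr8 table for 59.3% of probes. The exact permutation test used scipy 1.17.1. The limma step was tested on simulated data.

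Alternatives were quantile, median and detected-probe scaling, normexp correction (offset 50, on median signals), the log2 table, other filters, scan and replicate blocks, array weights, the methods' t-test, the mean over a gene's probes and leaving out each array. Keeping outlier-flagged spots was added after seeing the data. Scan could not be fitted as a fixed block beside the groups, since each scan held arrays of 1 group.

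The members and lists were chosen with earlier results of these data known. Named were all 10 members, and of each vascular list the called genes, up to 4 by size of change, or where none was called the 2 largest. Not every gene that this rule names is reported here. Kcnj11, Abcc8, Itgb5, Cldn1, Cldn3, F11r and Marveld2 were named after their values were seen.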

Additional observations from a re-analysis of the deposited data

How the results depend on the processing

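Over 19 alternatives each, or 20 for Abcc9, the changes of Cldn5, Vtn and Abcc9 kept their direction, from 0.37 to 0.51, 0.39 to 0.52 and 0.40 to 1.07, while their adjusted p ran from 0.00478 to 0.239, 0.00468 to 0.211 and 0.00201 to 0.287. Against 2872 probes and 3 genes called, normexp correction called 1769 probes, no filter on dim probes 358 probes and 1 gene (Abcc9), scan as a random block 0 and 0 (3669 probes at an unadjusted p under 0.05), scan day as a fixed block 4460, array weights 8761 and 6, and the methods' t-test with Benjamini-Hochberg adjustment 1854 probes and 4 genes (Flt1 added). At the methods' own thresholds (fold of 2 or more, unadjusted p below 0.05) that t-test called 327 probes and 0 of the 10 genes. Array weights gave AD 1 a weight of 8.89 and Sham 3 one of 0.16, and added Pecam1, Flt1 and Kcnj8. Leaving out each array in turn called 0 to 4460 probes and 0 to 4 genes, with 0 probes without AD 1, AD 2, Sham 1 or Sham 2 (4861, 6309, 6445 and 6126 at an unadjusted p under 0.05), 2 without AD 3 and 4460 without Sham 3. With a replicate block 0 probes and 0 genes were called (6480 at an unadjusted p under 0.05). Deviations of same-numbered arrays correlated at 0.03, 0.07 and 0.14, not every array correlated best with its own number, and the numbers were not taken as pairs. Uncalled differences changed sign for Ocln without AD 3 (omissions ranging from -0.082 to 0.28), for Pdgfrb with scan day as a block and without Sham 3 (-0.015, omissions up to 0.19), and for Rgs5 with the percentile over detected probes (0.051), with scan as a random block (0.0051) and without AD 1, Sham 1 or Sham 2 (omissions from -0.17 to 0.058). The causes were not tested. Dim probes, Abcc9 and Flt1 among the 10 genes, depend most on the background correction.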
